A study of Mus musculus with 9 samples.

Results

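The 54 genes described here encode the protein factors that recognise and mark splice sites: 11 SR protein genes (Srsf), 20 hnRNP genes (Hnrnp), 9 genes of the U2-associated SF3a and SF3b complexes, 7 genes of the Sm core ring, 4 genes of U1- and U2-specific snRNP proteins, and 3 genes of the U2AF family. They were selected by symbol alone from the 15384 genes of the count table, by the beginnings Srsf followed by a digit, Hnrnp, Sf3a or Sf3b followed by a digit, Snrp and U2af, and the rule uses no measured value. The study asked how MyC-CaP cells respond to asporin (ASPN), a protein secreted by stromal fibroblasts. MyC-CaP is an epithelial-like cell line from a mouse prostate cancer driven by a prostate-specific human MYC transgene. Cells in serum-free, calcium-free medium for 6 to 12 h received recombinant ASPN at 100 ng/mL, and mRNA libraries were sequenced at 0, 12 and 24 h, with 3 libraries per time. The labels call the time 0 libraries ASPN-treated as well and describe the replicates as biological, from wells plated in triplicate of 1 cell line, so the p-values below measure the spread between such wells. No 12 h or 24 h cells without ASPN belong to these 9 libraries, so the effect of ASPN and that of hours in this medium cannot be told apart.

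Splicing removes introns from pre-mRNA in the spliceosome, whose U1 snRNP pairs with the 5′ splice site while U2AF binds the polypyrimidine tract and AG of the 3′ splice site and helps U2 snRNP, through SF3a and SF3b, onto the branch point. SR proteins bind exonic enhancers and generally favour use of nearby sites, and many hnRNP proteins, with hnRNP A1 as the classic case, silence sites, so that the balance between the families sets alternative exon choice. Sm proteins form the ring that every spliceosomal Sm-class snRNA carries. Several SR and hnRNP genes limit their own protein by splicing in poison exons that send their transcripts to nonsense-mediated decay, and SRSF1 is known as a proto-oncogene and as a MYC target.

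The promoters of the genes with the largest calls in each direction are shown because they are the sequences upstream of the transcripts that moved most, 2 lower and 2 higher at 24 h. Each is the 200 bases before the RefSeq transcript start (assembly GRCm38.p6), read 5′ to 3′ on the strand of the gene, and capitals mark matches on either strand to any of 5 motifs. The GC box was searched by the letters GGGCGG. The CCAAT box was searched by its name. The TATA box was searched by the letters TATAAA. The E-box, the class of site that MYC binds with MAX, was searched by the letters CACGTG. The core of ETS factor sites was searched by the letters CCGGAA. Adjoining or overlapping matches merge into longer capital runs. Srsf5 lies at chr12:80945299-80945498 (plus strand), Srsf2 at chr11:116853095-116853294 (minus strand), Hnrnpa1 at chr15:103240197-103240396 (plus strand) and Snrpe at chr1:133610281-133610480 (minus strand).
Srsf5: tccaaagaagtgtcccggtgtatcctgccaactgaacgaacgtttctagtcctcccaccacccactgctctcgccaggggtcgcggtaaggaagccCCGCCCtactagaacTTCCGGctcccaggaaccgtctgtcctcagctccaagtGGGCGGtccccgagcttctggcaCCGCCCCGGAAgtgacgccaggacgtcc
Srsf2: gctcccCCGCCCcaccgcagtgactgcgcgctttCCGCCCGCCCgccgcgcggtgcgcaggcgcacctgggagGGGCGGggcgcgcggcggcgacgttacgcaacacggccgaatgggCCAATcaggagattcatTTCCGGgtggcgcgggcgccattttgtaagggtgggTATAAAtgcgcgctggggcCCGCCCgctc
Hnrnpa1: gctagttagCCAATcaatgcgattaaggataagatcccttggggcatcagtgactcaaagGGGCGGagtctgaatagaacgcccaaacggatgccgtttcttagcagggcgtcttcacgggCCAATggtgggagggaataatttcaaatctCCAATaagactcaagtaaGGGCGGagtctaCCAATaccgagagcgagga
Snrpe: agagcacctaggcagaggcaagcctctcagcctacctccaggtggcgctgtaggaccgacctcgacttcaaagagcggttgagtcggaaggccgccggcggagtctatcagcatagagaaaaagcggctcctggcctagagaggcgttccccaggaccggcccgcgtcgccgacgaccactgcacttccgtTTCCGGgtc

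In these windows Srsf5 carried 3 GC boxes and 2 ETS cores, Srsf2 carried 5 GC boxes, 1 CCAAT box, 1 TATA box and 1 ETS core, Hnrnpa1 carried 2 GC boxes and 4 CCAAT boxes, and Snrpe carried 1 ETS core alone. None of the 4 windows held CACGTG. RefSeq promoter entries were matched for 47 of the 54 genes, with 62 starts, and U2af2, Snrpb, Hnrnpul2, Sf3b4, Snrpd1, Sf3b5 and Hnrnpll had no entry. Over the 250 bases before each start, GGGCGG was present at 44 of the 62 starts (71.0%), against 58.0% of the starts of all genes tested at 24 h and 32.7% of all promoters. CCGGAA was present at 27 of 62 (43.5%), against 22.5% of the starts of tested genes and 12.0% of all promoters. CCAAT was at 45.2% of the starts of these genes, 35.9% of those of tested genes and 33.8% of all promoters. TATAAA stood at 8.06%, 6.18% and 12.4%, and CACGTG at 8.06%, 8.43% and 6.02%, in the same order. The 4 starts of the 4 genes called lower at 24 h held GGGCGG in 4, CCGGAA in 3, CCAAT in 1, TATAAA in 1 and CACGTG in 0 cases. The 7 starts of 6 of the 7 genes called higher held GGGCGG in 4, CCAAT in 4, CCGGAA in 4, CACGTG in 1 and TATAAA in 0 cases. A match is a description of letters in the window, and no binding was measured.

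Library totals ran from 41881191 to 52993821 counts, and the splicing factor genes took between 1.00% and 1.10% of them (435549 to 559020 counts per library). Levels are given as CPM, the counts of a gene per 1000000 counts of the library, scaled by the trimmed mean of M values (TMM), whose factors were 1.04 to 1.07 at time 0, 1.04 to 1.05 at 12 h and 0.898 to 0.911 at 24 h. Of the labelled cell type's markers, Cldn3, Foxa1, Hoxb13 and Krt19 were well counted, whereas Epcam had at most 1 count and Cdh1 at most 10 counts in any library. Of the 12 epithelial and prostate markers listed, Myc among them, 9 were tested at 24 h, where 1 was called higher and 3 lower, and on adjusted p 4 passed higher and 3 lower. The summed level of the 12 was lower in every 24 h library than in any earlier one. Foxa1, a pioneer transcription factor of prostate epithelium, was called lower, from 225 to 240 CPM at time 0 to between 88.0 and 95.5 CPM (log2 fold change -1.36, edgeR adjusted p = 6.39e-11). Krt19 was called higher, from a mean of 89.2 to 139 CPM (0.64). Leukocyte markers summed to at most 0.793 CPM and endothelial markers to at most 0.124 CPM in every library. Fibroblast markers summed to 13.0 to 14.1 CPM at time 0 and 9.14 to 10.5 CPM at 24 h. Nearly all of that was Pdgfra, which passed lower (-0.51), while Dcn was called higher at 24 h (log2 fold change 1.2, edgeR adjusted p = 0.0437) on 7 to 29 counts per library, and Col1a1 had at most 8 counts. The part of these marker changes in the results was not tested. Among the time 0 libraries, replicate 1 stood apart for the splicing factor genes. It was the lowest of the 3 for all 10 tested SR genes and for 37 of 52 tested splicing factor genes, against 36.8% of all genes tested at 24 h, and replicate 2 was the highest for 9 of the 10 SR genes. Among the 24 h libraries, replicate 1 was the highest for 9 of the 10 SR genes and replicate 2 the lowest for 8. For all genes tested at 24 h these shares were 34.4% and 34.8%. The median coefficient of variation of the SR genes was 11% at time 0, 2.88% at 12 h and 5.36% at 24 h.

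Of the 54 genes, 52 passed the filter on low counts. The 2 that did not were Srsf12, with 1 count in all 9 libraries, and U2af1l4, with 0 to 5 counts per library. A gene was called when its adjusted p was at most 0.05 and its fold change at least 1.5 in the quasi-likelihood test of edgeR, with p adjusted by Benjamini-Hochberg over all tested genes, and "edgeR adjusted p" below refers to this test. In RNA from whole cultures, fewer cells expressing a gene and less of its RNA per cell cannot be told apart.

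At 12 h of ASPN the splicing factor transcripts were close to their starting levels. None of the 52 tested genes was called at 12 h in edgeR, where 1.6% of 11410 tested genes were, and DESeq2 and limma-voom also called 0. At an unadjusted p under 0.05 there were 4 of 52 in edgeR (Hnrnpll, Hnrnpr, Snrpb and Sf3b1), against 21.4% of all tested genes, and also 4 in each of DESeq2 and limma-voom. On adjusted p alone, 1 of 52 passed, against 10.3% of all tested genes. That gene was Hnrnpll, a relative of hnRNP L known for CD45 splicing in lymphocytes, with a log2 fold change of -0.12 (SE 0.036, edgeR adjusted p = 0.040). The fold changes of the 52 ran from -0.18 for Hnrnph3 to 0.10 for Sf3b1 on the log2 scale, and the medians of the 7 families from -0.02 to 0.02. The 12 h and time 0 libraries did not overlap for 6 of 52 genes (11.5%), against 27.1% of all tested genes; Hnrnpll, Hnrnpr, Sf3b5 and Sf3b2 were lower and Hnrnpk and Sf3b1 higher. The later time held the changes, as the plot of fold changes at both times shows.

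**Figure D1:**
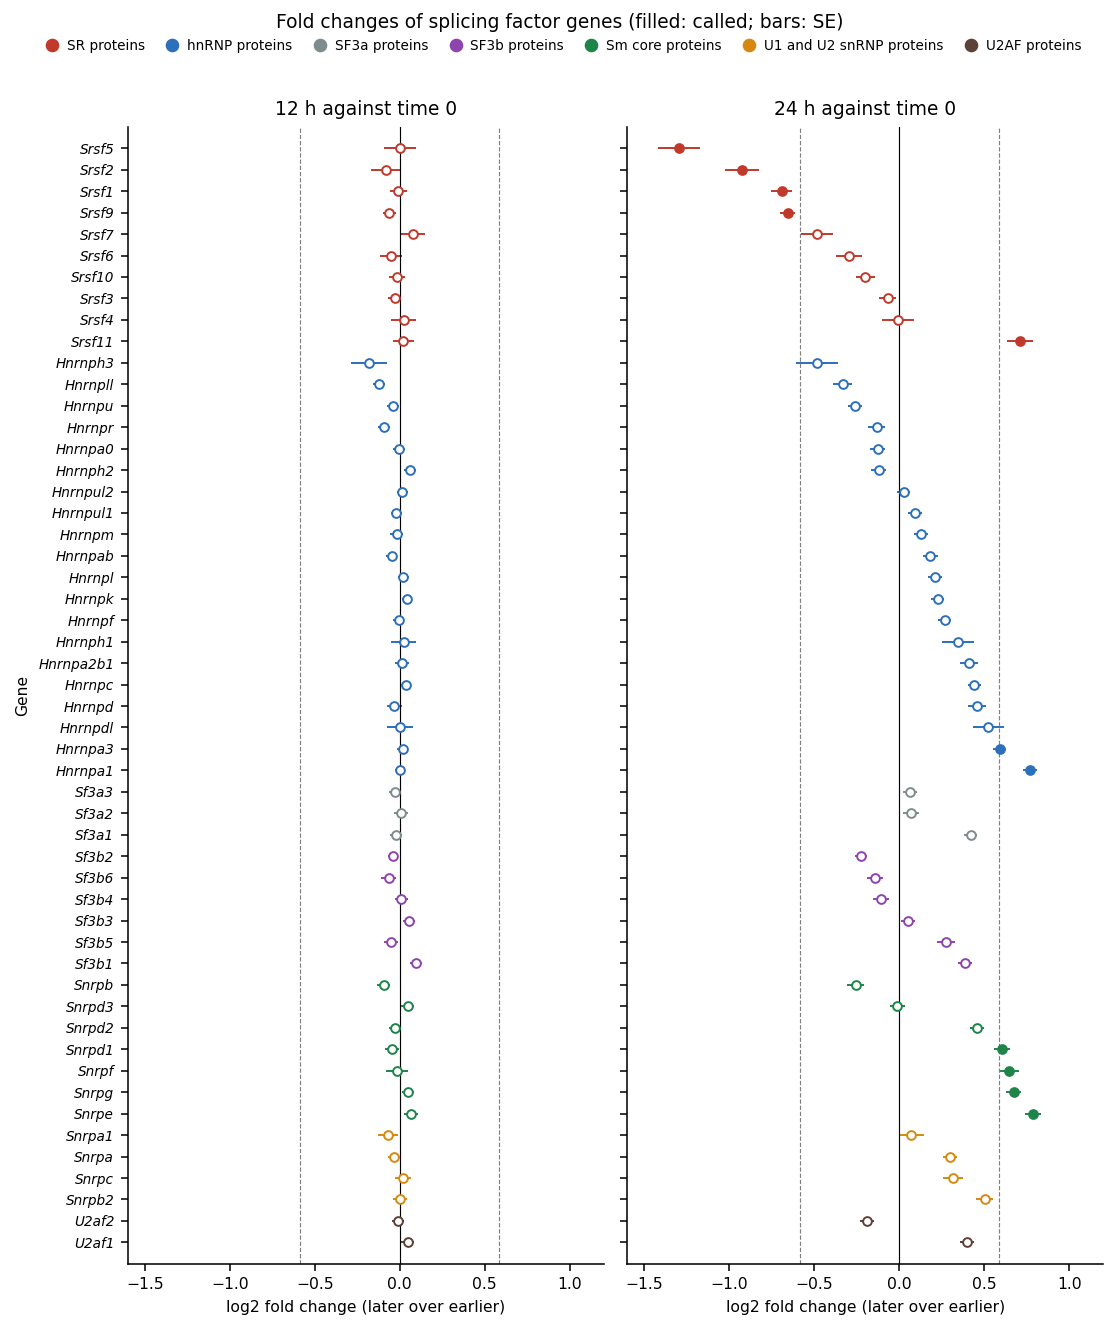
Fold changes of the 52 tested splicing factor genes, with the log2 fold change on the x axis at 12 h (left) and 24 h (right) against time 0 and the genes on the y axis, coloured by family. Points are fitted values with bars of 1 SE, filled points are called genes and dashed lines mark 1.5-fold. At 12 h every open point sits between -0.18 and 0.10, while at 24 h the called genes run from -1.30 for Srsf5 to 0.79 for Snrpe.

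At 24 h against time 0, 7 genes were called higher (Snrpe, Hnrnpa1, Srsf11, Snrpg, Snrpf, Snrpd1 and Hnrnpa3) and 4 were called lower (Srsf5, Srsf2, Srsf1 and Srsf9). The 7 higher genes were 13.5% of the 52, against 12.0% of 11444 tested genes, and the 4 lower genes were 7.69%, against 16.8%, so that the overall share of called genes was near or under the background. On adjusted p alone, 26 genes passed higher (50%, against 34.4% of all tested genes) and 17 passed lower (32.7%, against 36.5%), most of them by less than 1.5-fold. Under total counts 16 passed higher (30.8%, against 20.7% of all tested genes) and 25 lower (48.1%, against 51.7%), and with offsets for gene length and GC content 27 passed higher (51.9%, against 33.5%) and 18 lower (34.6%, against 36.7%). Among those that passed, Hnrnpa0, Hnrnph2, Hnrnpr, Hnrnpul1 and Sf3b6 did not pass in some of the 6 fits that left out 1 library. The libraries of the 2 times did not overlap for 44 of 52 genes (84.6%), against 74.0% of all tested genes. All 4 genes called lower were SR genes, which made 4 of 10 tested SR genes (40.0%), and 4 of the 7 called higher were Sm core genes, which made 4 of 7 (57.1%). With total counts in place of TMM, the median of all tested genes moved to -0.24 (log2). The split of called genes went from 7 higher and 4 lower to 0 higher and 6 lower (11.5%). Over all tested genes, total counts called 6.1% higher and 26.3% lower. With offsets for gene length and GC content the split was 4 higher (7.69%, against 11%) and 6 lower (11.5%, against 15.3%). Every one of the 7 higher genes stayed above 0 under each of these scalings and passed on adjusted p under total counts, and relative to the shifted median of all genes they stood at 0.61 to 0.80.

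All 4 losses called at 24 h under TMM were in SR genes, and under total counts, and likewise with length and GC offsets, Hnrnph3 and Srsf7 were called lower as well. Of the 10 SR genes tested, 7 fell on adjusted p (70.0%, against 36.5% of all tested genes), 1 rose and 2 did not pass, and their median log2 fold change was -0.39, beside -0.02 over all tested genes. The median was -0.61 under total counts, and it ran from -0.47 to -0.28 when libraries were left out 1 at a time.

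Srsf5, an SR protein first known as a growth- and insulin-induced gene of liver cells, had the largest loss of the family (gene ENSMUSG00000021134.17, chr12:80945504-80950507 in GRCm38, plus strand). It measured 138, 215 and 175 CPM at time 0, 172, 179.8 and 176 CPM at 12 h and 78.7, 64.7 and 71.9 CPM at 24 h. The 3 libraries at 24 h were all below the 6 earlier ones, which overlapped with each other. The fall at 24 h was 2.46-fold (log2 fold change -1.30, SE 0.12, edgeR adjusted p = 5.37e-07). Time 0 replicate 1 was the lowest of its group by 0.50 on the log2 scale against the mean of the other two libraries, and leaving single libraries out moved the fold change only between -1.42 and -1.12.

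Srsf2, also known as SC35 and a marker protein of nuclear speckles, measured 119.7, 177 and 149 CPM at time 0, 147, 137 and 136 CPM at 12 h and 80.5, 75.2 and 78.9 CPM at 24 h. Its 24 h libraries lay below all earlier libraries, and time 0 replicate 1 was again the lowest of its group. The log2 fold change was -0.93 (SE 0.10, edgeR adjusted p = 2.46e-06), and it ran from -1.04 to -0.77 without single libraries. Exons of Srsf2 overlap those of Mettl23 and Mfsd11 on the other strand, and the strand setting of the counting is not given in the sources used here.

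Srsf1, the founding SR protein (SF2/ASF), measured 154, 186 and 177 CPM at time 0, 172, 171 and 169 CPM at 12 h and 112, 101 and 108 CPM at 24 h. Its 24 h libraries were all below the earlier 6, with a log2 fold change of -0.69 (SE 0.063, edgeR adjusted p = 4.21e-07) and a range of -0.75 to -0.63 without single libraries. Srsf9, a close relative of Srsf1 in its RNA-binding domains, also fell. It measured 99.6, 109 and 104 CPM at time 0, 99.9, 97.7 and 101 CPM at 12 h and 65.2, 67.8 and 65.3 CPM at 24 h. No library at 24 h reached the earlier ones, and the log2 fold change was -0.66 (SE 0.046, edgeR adjusted p = 3.35e-08), with a range of -0.68 to -0.61. All 4 losses stayed called under each other scaling, filter and test tried except the test against a 1.5-fold null, which kept 2, and without time 0 replicate 1 the count was again 7 higher and 4 lower genes.

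The next SR genes fell by less than the 1.5-fold threshold. Srsf7, which like Srsf3 links splicing to mRNA export, measured 73.6, 99.1 and 86.7 CPM at time 0, 93.2, 92.1 and 87.8 CPM at 12 h and 69.4, 56.7 and 59.6 CPM at 24 h, and its 24 h libraries lay below the rest. Srsf6, an enhancer-binding SR protein, measured 124, 163 and 143 CPM at time 0, 144, 136 and 134 CPM at 12 h and 124, 111 and 116 CPM at 24 h, with its 24 h libraries also below the rest although the highest of them, at 124 CPM, came within 1 CPM of the lowest time 0 library. Their log2 fold changes were -0.48 (SE 0.094, edgeR adjusted p = 0.000446) and -0.29 (SE 0.078, edgeR adjusted p = 0.00413). Without single libraries Srsf7 ran from -0.57 to -0.37, and Srsf6 from -0.37 without time 0 replicate 1 to -0.19 without time 0 replicate 2. Srsf10, which turns into a splicing repressor when dephosphorylated, fell as well, with a log2 fold change of -0.20 and a range of -0.24 to -0.15.

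Srsf3, the smallest SR protein, was one of the 2 that did not pass. It measured 159.5, 178 and 173 CPM at time 0, 169, 163 and 167 CPM at 12 h and 171, 155 and 161 CPM at 24 h, with overlapping libraries at all times, and its log2 fold change was -0.07 (SE 0.051, edgeR adjusted p = 0.243), with a range of -0.11 to -0.03. It passed lower at -0.29 under total counts and at -0.24 with the length and GC offsets. Srsf4, the other, stood at -0.01 (SE 0.094), on 586 to 776 counts per library, and its direction turned without single libraries, between -0.11 and 0.05.

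Srsf11 went the other way from its family. This SR-related protein (p54) has a single RNA-binding domain and a long RS region, and it is known for neuronal microexons. It measured 114, 146 and 126 CPM at time 0, 133, 129 and 127 CPM at 12 h and 227, 196 and 208 CPM at 24 h. The 24 h libraries were all far above the earlier 6, with a rise of 1.64-fold (log2 fold change 0.71, SE 0.077, edgeR adjusted p = 1.98e-06). Without single libraries it ran from 0.65 to 0.82. Under total counts it stood at 0.49, below the fold threshold and still above 0.

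**Figure D2:**
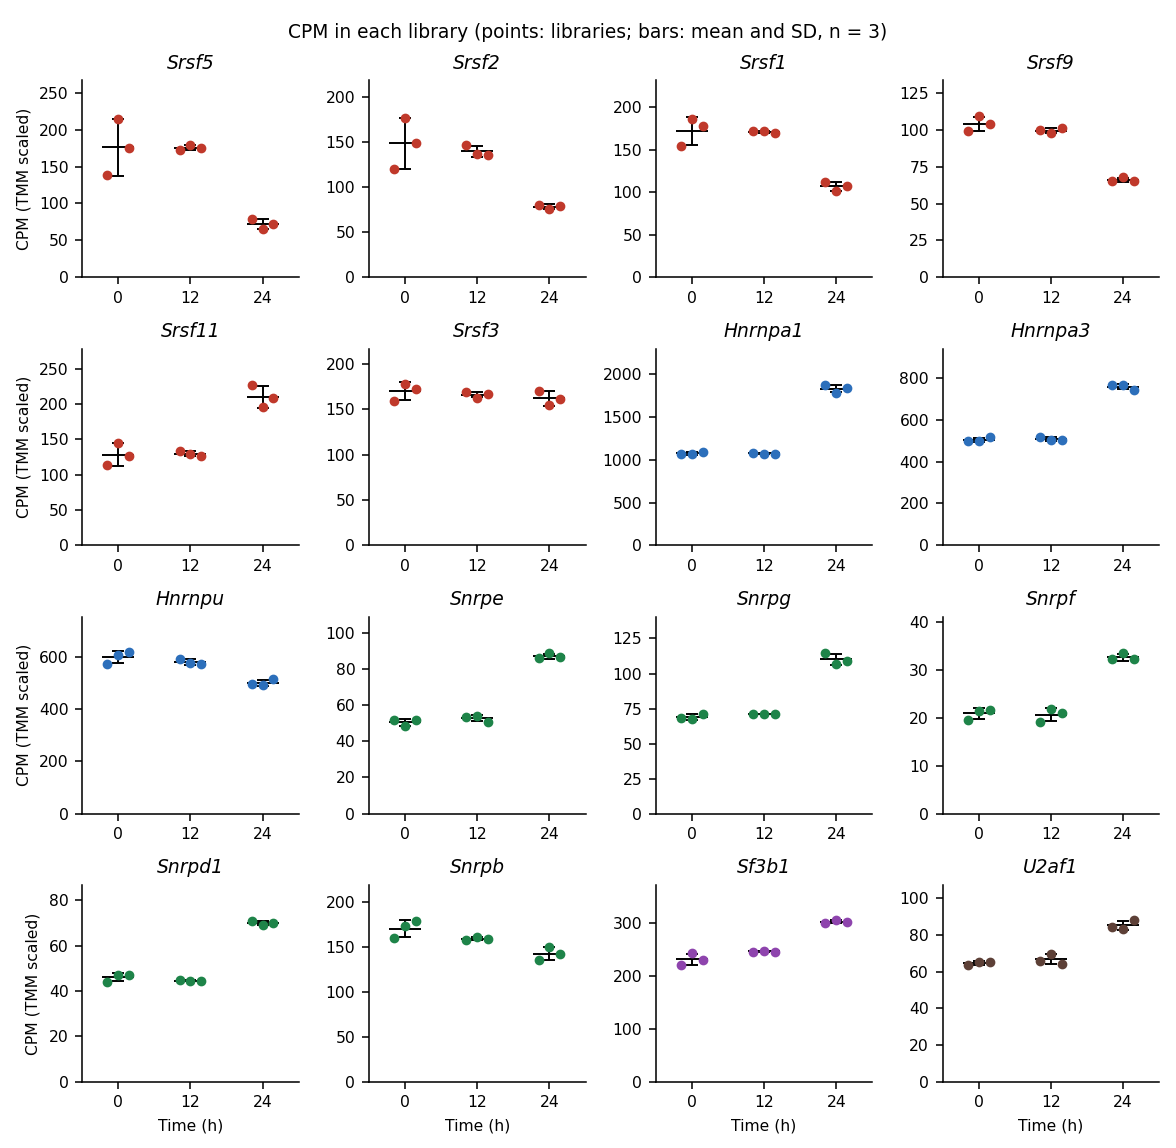
CPM (y axis, TMM scaled, from 0) of 16 splicing factor genes at 0, 12 and 24 h (x axis), with 1 point per library and bars for the mean and SD of n = 3. The 12 h points lie near the time 0 points in each panel, Srsf5 drops at 24 h to between 64.7 and 78.7 CPM and Hnrnpa1 rises to between 1782 and 1869 CPM, whereas Srsf3 keeps overlapping values at all times.

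Of the 20 tested hnRNP genes, 13 rose on adjusted p (65.0%, against 34.4% of all tested genes), 6 fell (30.0%, against 36.5%) and 1 did not pass. Under total counts 6 passed higher (30.0%, against 20.7%) and 8 lower (40.0%, against 51.7%). Under TMM 2 were called higher and 0 lower, and the median log2 fold change was 0.20. That median was -0.03 under total counts, beside -0.24 over all tested genes, where Hnrnpl, Hnrnpab, Hnrnpul1 and Hnrnpm changed sign, as did Hnrnpul2, which did not pass under TMM (0.03) but passed lower under total counts (-0.20, edgeR adjusted p = 0.00043) and higher with the length and GC offsets (0.16, edgeR adjusted p = 0.00126).

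Hnrnpa1, the abundant silencer that antagonises SRSF1 at alternative sites, showed the largest change of the family under TMM (chr15:103240432-103246692 in GRCm38, plus strand). It measured 1066, 1064 and 1090 CPM at time 0, 1079, 1071 and 1069 CPM at 12 h and 1869, 1782 and 1840 CPM at 24 h. The 6 earlier libraries spanned 1064 to 1090 CPM and the 24 h libraries were all above them, a rise of 1.71-fold (log2 fold change 0.77, SE 0.040, edgeR adjusted p = 2.22e-09). Hnrnpa3, a member of the same A/B subfamily, measured 497, 499 and 515 CPM at time 0, 520.1, 502 and 503 CPM at 12 h and 766, 764 and 744 CPM at 24 h. It passed the fold threshold narrowly at 1.5-fold (log2 fold change 0.59, SE 0.039, edgeR adjusted p = 1.94e-08), and leaving out 24 h replicate 1 or 24 h replicate 2 took it below that threshold. Of the 100-base words in its exons 25.6% also occur in other annotated genes, 23 of them pseudogenes, and for Hnrnpa1 the share was 25.9% with 10 pseudogenes, so how the counting treated reads that fit several places bears on both and is not given in the sources used here.

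Hnrnpa2b1, an A/B subfamily protein also known for sorting RNA to sites in the cell, measured 658, 746 and 741 CPM at time 0, 731, 716 and 710.4 CPM at 12 h and 995, 930.1 and 929 CPM at 24 h. Hnrnpc, whose tetramers bind uridine tracts and repress cryptic exons, measured 259.7, 256 and 259.7 CPM at time 0, 262, 270.0 and 259.6 CPM at 12 h and 356, 339.6 and 356 CPM at 24 h. Both were higher in every 24 h library than in any earlier one, by 0.41 (SE 0.053, edgeR adjusted p = 1.11e-05) and 0.44 (SE 0.039, edgeR adjusted p = 2.87e-07) on the log2 scale, which is under 1.5-fold. Hnrnpk, which binds cytosine-rich RNA and DNA and acts in transcription as well as splicing, measured 416, 414 and 414 CPM at time 0, 432, 428 and 418 CPM at 12 h and 496, 467 and 491 CPM at 24 h. Its 24 h libraries did not overlap with the others and its log2 fold change was 0.23 (SE 0.040, edgeR adjusted p = 0.000187), a size that total counts reduced to 0.0038.

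Hnrnpdl, Hnrnpd and Hnrnph1 rose too, with log2 fold changes of 0.53, 0.46 and 0.34. Hnrnph1 no longer passed at 0.12 under total counts (edgeR adjusted p = 0.307) or at 0.12 with the length and GC offsets (edgeR adjusted p = 0.201). Hnrnpd encodes AUF1, which binds AU-rich elements of unstable mRNAs, and Hnrnpdl is its paralogue, while Hnrnph1 binds guanine runs. The guanine-run binder Hnrnph3 moved the opposite way, at -0.48 (SE 0.12, edgeR adjusted p = 0.00348), on 337 to 578 counts per library, the fewest of the tested hnRNP genes. It was called lower at -0.71 under total counts and at -0.63 with the offsets.

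Hnrnpu, the nuclear scaffold protein SAF-A, measured 573, 605 and 617 CPM at time 0, 593, 577 and 570.3 CPM at 12 h and 495, 490.2 and 514 CPM at 24 h. All its 24 h libraries were below the earlier ones, and it fell by a log2 fold change of -0.26 (SE 0.043, edgeR adjusted p = 0.000105). Hnrnpll continued downward to -0.33, and Hnrnpr, Hnrnpa0 and Hnrnph2 fell by 0.13, 0.13 and 0.12 on the log2 scale. Hnrnpr did not pass in 4 of the 6 fits without 1 library (time 0 replicates 2 and 3, 24 h replicates 1 and 2). Hnrnpa0 did not pass without time 0 replicate 1, time 0 replicate 3 or 24 h replicate 1, nor Hnrnph2 without time 0 replicate 2, time 0 replicate 3 or 24 h replicate 2, and Hnrnph2 stood at -0.08 without time 0 replicate 3. Hnrnpul1, at 0.09, did not pass without time 0 replicate 2, time 0 replicate 3, 24 h replicate 2 or 24 h replicate 3.

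Of the 7 Sm core genes, 5 rose on adjusted p (71.4%, against 34.4% of all tested genes), 4 of them past 1.5-fold, 1 fell and 1 did not pass, and the median log2 fold change was 0.60. The median was 0.38 under total counts and 0.45 with length and GC offsets. These are short transcripts, with a median merged exon length of 1976 bases against 4477 bases over all tested genes.

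Snrpe, the Sm E subunit, had the largest rise among all 52 genes (chr1:133603871-133610291 in GRCm38, minus strand). It measured 51.6, 48.4 and 51.5 CPM at time 0, 53.5, 54.0 and 50.8 CPM at 12 h and 85.9, 88.8 and 86.7 CPM at 24 h. The 24 h libraries lay between 85.9 and 88.8 CPM and no earlier one above 54.0 CPM, a rise of 1.73-fold (log2 fold change 0.79, SE 0.045, edgeR adjusted p = 4.61e-09). Snrpg, the Sm G subunit, measured 68.5, 67.3 and 71.4 CPM at time 0, 71.1, 71.2 and 71.4 CPM at 12 h and 115, 107 and 109 CPM at 24 h. The earlier 6 libraries spanned 67.3 to 71.4 CPM and the 24 h libraries stood clear of them (log2 fold change 0.67, SE 0.045, edgeR adjusted p = 2.06e-08).

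Snrpf, the Sm F partner of E and G, was counted least of the called genes, at 875 to 1617 counts per library. It measured 19.6, 21.4 and 21.7 CPM at time 0, 19.1, 21.8 and 21.0 CPM at 12 h and 32.2, 33.5 and 32.3 CPM at 24 h. Its log2 fold change was 0.65 (SE 0.060, edgeR adjusted p = 4.7e-07), and its exons overlap those of Ccdc38 on the other strand. Snrpd1, the D1 subunit and a major autoantigen in lupus, measured 44.0, 47.1 and 46.9 CPM at time 0, 44.9, 44.3 and 44.3 CPM at 12 h and 70.8, 68.9 and 69.9 CPM at 24 h. The log2 fold change was 0.60 (SE 0.046, edgeR adjusted p = 7.09e-08), and with length and GC offsets both Snrpd1 and Snrpg stood below the fold threshold, at 0.45 and 0.50.

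Snrpd2, the D2 subunit that binds D1, rose to a lesser extent (0.46, edgeR adjusted p = 4.05e-07), and Snrpd3 was at -0.01 (SE 0.043, edgeR adjusted p = 0.823), with its sign turning without single libraries (-0.01 to 0.02), and it passed lower at -0.23 under total counts. Snrpb, which encodes the B and B′ subunits and partners with D3 in the ring, measured 159.6, 173 and 179 CPM at time 0, 158, 162 and 159 CPM at 12 h and 135, 149.8 and 142 CPM at 24 h. It fell, with a log2 fold change of -0.26 (SE 0.052, edgeR adjusted p = 0.000559), and its 24 h libraries lay below all earlier ones. B and D3, the 2 subunits that did not rise, join as a heterodimer during assembly of the ring, and D1 with D2 and E with F and G are its other assembly units. This grouping was noticed after the values were seen and was not tested.

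Of the 4 genes of U1- and U2-specific proteins, 3 rose on adjusted p (75.0%, against 34.4% of all tested genes), 0 were called, and the median log2 fold change was 0.31. Under total counts 1 of the 4 passed, Snrpb2 at 0.28, and the median was 0.09. Snrpa, the U1 snRNP A protein, measured 90.7, 91.3 and 96.1 CPM at time 0, 91.7, 89.7 and 90.0 CPM at 12 h and 114, 114 and 114 CPM at 24 h, so the 24 h libraries agreed within 1 CPM and were clear of the others (log2 fold change 0.30, SE 0.041, edgeR adjusted p = 2.04e-05). Snrpb2, its U2 counterpart, and Snrpc, the U1 C protein that stabilises pairing with the 5′ splice site, had log2 fold changes of 0.50 and 0.32. Snrpa1, the U2 A′ protein, was at 0.07 (edgeR adjusted p = 0.399), and between 0.01 and 0.14 without single libraries.

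Among the factors that define the branch point and 3′ splice site, the direction differed from subunit to subunit. Sf3b1, the SF3b scaffold recurrently mutated in myelodysplasia and uveal melanoma, measured 220.0, 242 and 230.0 CPM at time 0, 245, 247 and 245 CPM at 12 h and 299, 305 and 301 CPM at 24 h. It rose at 24 h (log2 fold change 0.39, SE 0.043, edgeR adjusted p = 2.53e-06), and its 12 h libraries already lay above the time 0 libraries without passing the test. Sf3b5 rose as well (0.28), but no longer passed under total counts (0.05, edgeR adjusted p = 0.363). Sf3b2 and Sf3b6 fell (-0.23 and -0.14, the second not passing without time 0 replicate 2 or time 0 replicate 3), and Sf3b3 and Sf3b4 did not pass (0.05 and -0.11), with ranges of 0.03 to 0.08 and -0.13 to -0.07 without single libraries. Both passed lower under total counts (-0.17 and -0.33), whereas with the offsets Sf3b3 passed higher (0.22) and Sf3b4 lower (-0.20). Of the 6 fits without 1 library, Sf3b4 passed lower in that without 24 h replicate 2. The fall of Sf3b2, which partners with SF3B4, was reversed to 0.06 by the length and GC offsets.

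Sf3a1, the SF3a subunit that bridges to U1 snRNP, measured 132, 129 and 134 CPM at time 0, 128, 126 and 133 CPM at 12 h and 172, 176 and 179 CPM at 24 h. It was the 1 SF3a gene that passed, with a log2 fold change of 0.42 (SE 0.039, edgeR adjusted p = 5.09e-07), whereas Sf3a2 and Sf3a3 stood at 0.07 (0.05 to 0.11 without single libraries) and 0.06 (0.05 to 0.08). Under total counts both of these passed lower (-0.15 and -0.16), and with the offsets Sf3a2 passed higher (0.20). The U2AF heterodimer split. U2af1, which reads the AG, measured 63.4, 65.3 and 65.2 CPM at time 0, 65.8, 69.7 and 64.3 CPM at 12 h and 84.2, 83.3 and 88.0 CPM at 24 h and rose (log2 fold change 0.40, SE 0.043, edgeR adjusted p = 1.99e-06). U2af2, which reads the polypyrimidine tract, measured 227, 244 and 248 CPM at time 0, 238, 238 and 235 CPM at 12 h and 205, 213 and 212 CPM at 24 h and fell (log2 fold change -0.19, SE 0.043, edgeR adjusted p = 0.00152). For both genes the 24 h libraries lay outside the range of the earlier 6, and for U2af1 16.3% of its 100-base words occur in other genes.

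The balance between families can also be read without scaling between libraries, as the share of the summed counts of the 54 genes that each family took. SR genes took 11.2%, 13.5% and 12.1% at time 0, 12.3%, 12.1% and 12.0% at 12 h, and 8.71%, 7.99% and 8.26% at 24 h. The 24 h shares lay below all others, with a mean of 8.32% ± 0.36 (SD, n = 3) against 12.2% ± 1.16 (SD, n = 3) at time 0. The difference of -3.92 percentage points ran from -4.45 to -3.30 when libraries were left out 1 at a time. An exact two-sided permutation test gave p = 0.10, the smallest that this test can give with 3 libraries against 3, so no family share can pass 0.05 in it.

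The hnRNP share went from 64.3% ± 0.61 (SD, n = 3) at time 0 to 64.4% ± 0.14 (SD, n = 3) at 12 h and 69.3% ± 0.093 (SD, n = 3) at 24 h, without overlap between the first and last times (exact permutation p = 0.10). Without Hnrnpa1, the largest contributor, the gain was 3.50 percentage points in place of 4.99. The Sm core share was 5.26% at time 0 and 5.63% at 24 h, that of the U1 and U2 proteins 2.03% and 2.20%, and both were separated (exact permutation p = 0.10 each). SF3b went from 10.6% to 9.36% and U2AF from 3.03% to 2.55%, also without overlap (exact permutation p = 0.10 each), while the SF3a shares of 2.58% and 2.67% overlapped (exact permutation p = 0.20). With Hnrnpa1 left out of the sum, these differences moved by over 1.5 times for the Sm core (0.37 to 0.79 percentage points), the U1 and U2 proteins (0.17 to 0.34), SF3a (0.09 to 0.28) and SF3b (-1.22 to -0.73), with the same directions. A share depends on the other families, since all 7 add up to the whole.

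The ratio of Srsf1 to Hnrnpa1 counts, a pair known for opposing effects on splice-site choice, was 0.144, 0.174 and 0.163 at time 0, 0.160, 0.160 and 0.158 at 12 h, and 0.0597, 0.0566 and 0.0585 at 24 h. The means were 0.161 ± 0.015 (SD, n = 3) at time 0 and 0.0582 ± 0.0016 (SD, n = 3) at 24 h, without overlap (exact permutation p = 0.10). The ratio is of counts and not of molecules, since the transcripts differ in length.

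**Figure D3:**
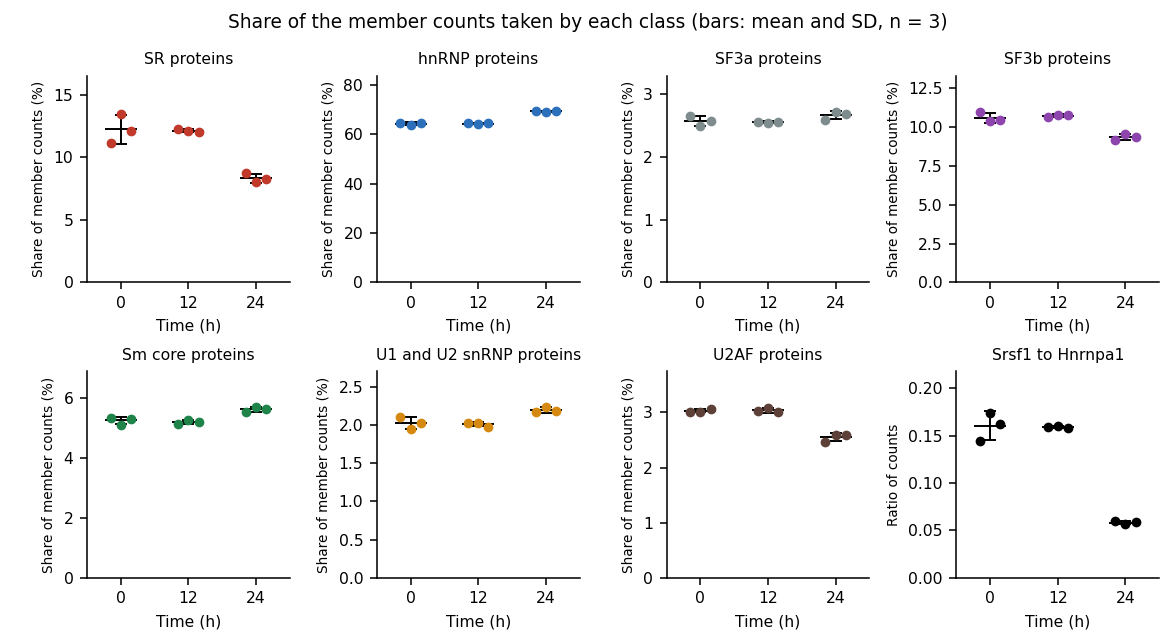
Share of the summed counts of the 54 splicing factor genes (y axis, %, from 0) taken by each of 7 families at 0, 12 and 24 h (x axis), and the ratio of Srsf1 to Hnrnpa1 counts in the last panel. Points are libraries and bars the mean and SD of n = 3. The SR share drops from 12.2% to 8.32% between time 0 and 24 h while the hnRNP share rises from 64.3% to 69.3%, and the 12 h shares of both lie near those at time 0.

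Set against 12 h, which uses the same 24 h libraries as the comparison with time 0 and so is not independent of it, the same 7 genes were called higher (13.5% of 52, against 10.4% of 11394 tested genes) and 3 were called lower (5.77%, against 15.3%). On adjusted p alone 28 passed higher (53.8%, against 35.7%) and 15 lower (28.8%, against 35.6%), and under total counts 18 passed higher (34.6%, against 20.8%) and 26 lower (50%, against 51.6%). The calls under total counts were 0 higher (against 4.25% of all tested genes) and 5 lower (9.62%, against 24.8%). With the length and GC offsets they were 4 higher (7.69%, against 9.05%) and 5 lower (9.62%, against 13.6%). The 12 h libraries of the SR genes were close together, and this comparison does not involve time 0 replicate 1. It does use the 24 h libraries, among which replicate 1 was the highest for 9 of the 10 SR genes. Srsf5 had a log2 fold change of -1.27 (SE 0.058, edgeR adjusted p = 6.2e-10), with about the same size as against time 0 and a smaller SE. Srsf2 stood at -0.82 (SE 0.043) and Srsf1 at -0.66 (SE 0.041), while Srsf9 came just short of the fold threshold at -0.57 (edgeR adjusted p = 2.03e-08). Hnrnpa1 stood at 0.79, Snrpe at 0.74 and Srsf11 at 0.71. The family medians were -0.38 for SR, 0.21 for hnRNP and 0.65 for Sm core genes, and the hnRNP median again went below 0 under total counts, to -0.02.

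Per kilobase of merged exons, which allows levels of different genes to be compared, Hnrnpa1 was the most abundant of the 54 at time 0 with 340 CPM per kb, and it reached 581 CPM per kb at 24 h. Hnrnpab followed with 151, Hnrnpa0 with 137, Hnrnpa2b1 with 109 and Hnrnpa3 with 93.3 CPM per kb at time 0. Snrpb led the snRNP genes with 86.2 CPM per kb and Srsf9 the SR genes with 63.1 CPM per kb, and at 24 h these had 72.1 and 40.0 CPM per kb. The lowest tested were Srsf4, Hnrnpr and Hnrnph3 with 3.78, 3.43 and 3.41 CPM per kb. These levels depend on which exons are annotated.

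**Figure D4:**
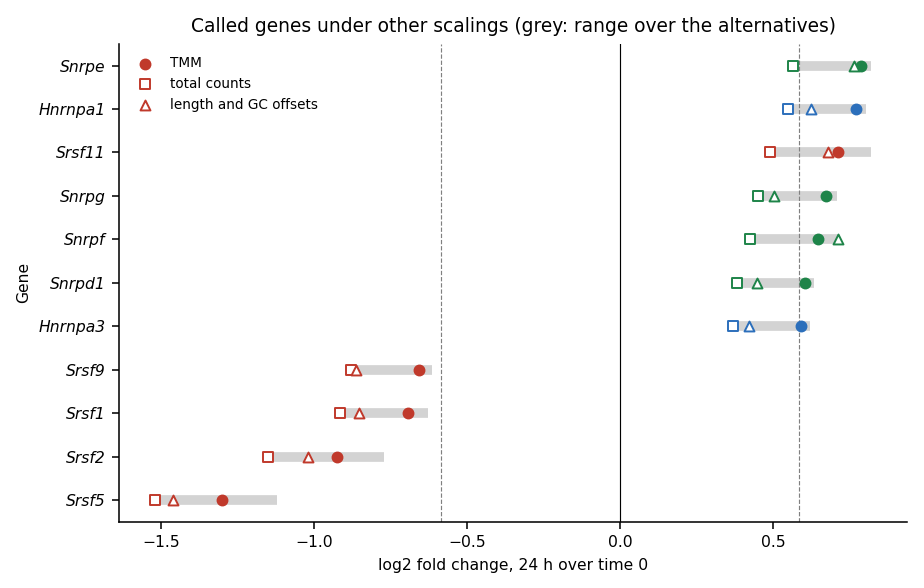
The 11 called splicing factor genes (y axis) with their log2 fold change at 24 h over time 0 (x axis) under TMM (filled circles), total counts (open squares) and offsets for length and GC content (open triangles), with grey bars for the range over all alternatives and dashed lines at 1.5-fold. The 4 SR losses stay below the lower line under all of these, from -1.52 to -1.12 for Srsf5, whereas under total counts the 7 gains move left to between 0.37 for Hnrnpa3 and 0.57 for Snrpe.

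Several of these genes have annotated transcripts outside the coding set, and the counts per gene add them all. Transcripts marked for nonsense-mediated decay were annotated in 27 of the 54 genes and in 9 of the 11 SR genes, and retained-intron transcripts in 41 of the 54. Whether the productive or the unproductive forms moved was not measured by counts per gene. The median GC content of the 54 was 45.3%, against 49.9% over all tested genes.

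Other splicing genes moved in both directions. In 9 lists of other splicing genes, which hold 188 genes of which 184 were tested, 15 were called higher (8.15%) and 17 lower (9.24%) at 24 h, both below the 12.0% and 16.8% of all tested genes. Under total counts the split became 4 higher (2.17%, against 6.1% of all tested genes) and 31 lower (16.8%, against 26.3%). With the length and GC offsets it was 16 higher (8.7%, against 11%) and 18 lower (9.78%, against 15.3%). On adjusted p alone, 86 passed higher (46.7%, against 34.4%) and 56 lower (30.4%, against 36.5%), and under total counts 44 passed higher (23.9%, against 20.7%) and 88 lower (47.8%, against 51.7%). At 12 h edgeR called 0 of the 184, against 1.6% of all tested genes, and DESeq2 and limma-voom also called 0. In edgeR 11 of the 184 had an unadjusted p under 0.05, against 21.4% of all tested genes.

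Of the 31 tested proteins of the U1, U2 and tri-snRNP particles, 13 rose and 9 fell on adjusted p, and 1 was called, the U2-associated helicase gene Dhx15 with a log2 fold change of 0.75. Over all tested genes 34.4% rose and 36.5% fell on adjusted p, and 12.0% were called higher and 16.8% lower. In the Lsm list, whose ring-forming proteins resemble the Sm core, 4 of 10 rose and 1 fell, with 3 called higher, among them Lsm3 at 0.77 and Lsm11, a U7 snRNP subunit, at 0.77. All 3 were below the fold threshold under total counts. The 29 Prp19 complex and catalytic factors held 11 that rose and 6 that fell, with calls for Prpf38b (0.82), Cwc27 (0.72), Cwc25 (-0.66) and Dhx8 (-0.62). Of the 12 minor spliceosome genes 5 rose and 2 fell, with Snrnp35 called lower at -0.68.

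The genes that assemble and modify Sm proteins split. Of 16 tested, 8 rose and 6 fell, 1 was called higher (Gemin8, a subunit of the SMN complex, at 0.78) and 3 lower. The shares over all tested genes were 34.4% rising, 36.5% falling, 12.0% called higher and 16.8% called lower. Coil, which encodes coilin, the scaffold of the Cajal bodies where snRNPs mature, went from a mean of 15.1 to 7.17 CPM (log2 fold change -1.07, edgeR adjusted p = 5.29e-07). Wdr77, the partner of the PRMT5 methylase that modifies Sm tails, went from 42.4 to 25.7 CPM (-0.72, edgeR adjusted p = 4.9e-08).

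Among the 10 kinases, importers and phosphatase regulators of SR proteins, 4 rose and 5 fell, and 1 was called, Clk2, which phosphorylates SR proteins in the nucleus, at -0.71. For this list and the next, 34.4% of all tested genes rose, 36.5% fell, 12.0% were called higher and 16.8% lower. Clk1 passed on adjusted p at -0.45 (edgeR adjusted p = 0.00334) and was called lower at -0.68 under total counts, and the cytoplasmic kinase gene Srpk1 stood at -0.07 (edgeR adjusted p = 0.247). In the list of 21 SR-related genes 11 rose and 8 fell, with 1 called higher, Rsrc2 at 0.60, and 4 lower. Srrm2, the large RS-rich organiser of nuclear speckles, had the biggest fall of all lists under TMM, from 429 to 461 CPM at time 0 to between 167 and 178 CPM at 24 h (log2 fold change -1.37, SE 0.044, edgeR adjusted p = 4.2e-11). With the length and GC offsets Srrm2 stood at -1.04, beside -1.08 for Coil. Arglu1 was called lower at -0.88, and Tra2b, an SR-like enhancer binder, passed at 0.21 (edgeR adjusted p = 0.00268) but stood at -0.01 under total counts.

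Of the 40 other RNA-binding regulators 22 rose and 14 fell, with 6 called higher and 3 lower. All tested genes had 34.4% rising and 36.5% falling, with 12.0% called higher and 16.8% lower. Rbm3, a cold- and stress-inducible RNA-binding protein, went from 289 to 300 CPM at time 0 to between 584 and 597 CPM at 24 h (log2 fold change 1.01, SE 0.039, edgeR adjusted p = 2.02e-10), and Pcbp2, a cytosine-tract binder related to hnRNP K, rose by 0.90. Esrp2, a regulator of the epithelial splicing programme, was called lower at -1.08, as was Khsrp at -1.05. In the exon junction and decay list, where 8 of 15 rose and 5 fell, Upf1, the central helicase of nonsense-mediated decay, was called lower at -1.03, Casc3 at -0.94, and Upf3b higher at 0.88. Of the genes named from these lists, Dhx15, Lsm3, Lsm11, Cwc27, Gemin8 and Rsrc2 were below the fold threshold under total counts, and with the length and GC offsets Cwc27, Dhx8, Clk2 and Rsrc2 were.

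Myc, a regulator of several splicing factor genes, was lower at 24 h and not at 12 h, with a mean of 81.0 CPM at time 0, 92.4 CPM at 12 h and 41.1 CPM at 24 h. It passed higher at 12 h (log2 fold change 0.19, edgeR adjusted p = 0.00195) and was called lower at 24 h (log2 fold change -0.98, SE 0.044, edgeR adjusted p = 7.35e-10). Reads of the endogenous gene and of the human transgene cannot be told apart in these counts, and whether Myc bears on the splicing factor genes was not tested.

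**Figure D5:**
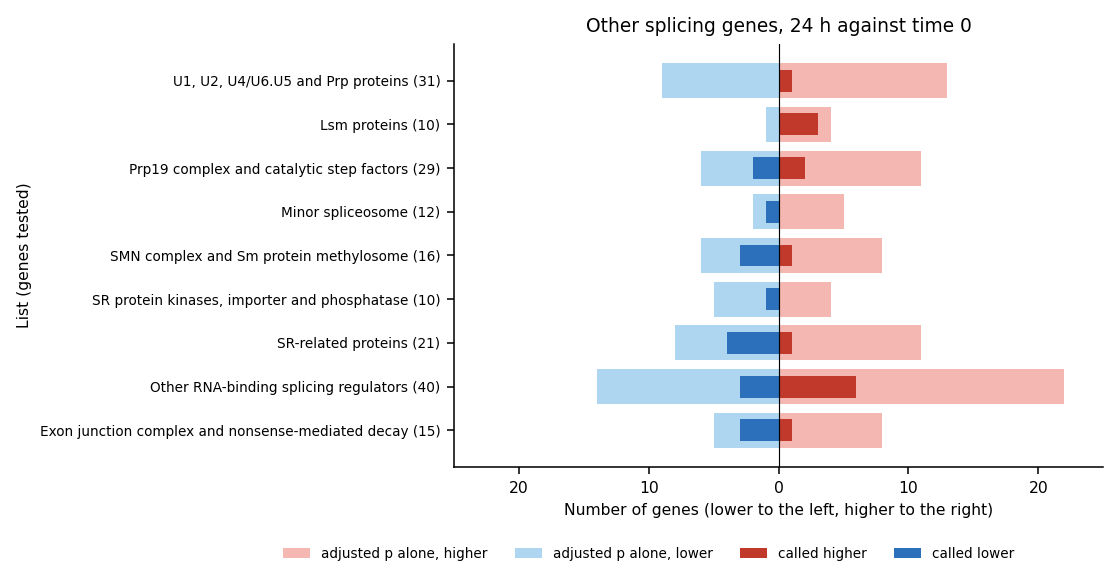
Number of genes (x axis, lower to the left and higher to the right of 0) in 9 lists of other splicing genes (y axis, with the number tested) that passed on adjusted p alone (pale bars) or were called (dark bars) at 24 h against time 0. Both directions occur in each list on adjusted p, with 22 higher and 14 lower among the 40 other RNA-binding regulators, and 4 of the 5 called SR-related genes are lower. Over all tested genes 34.4% passed higher and 36.5% lower, and 12.0% were called higher and 16.8% lower.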

How the data were processed

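RNA from 9 MyC-CaP libraries (3 each at 0, 12 and 24 h) was sequenced as 150-base read pairs. Per the submitters' processing notes and the study's methods, the authors trimmed reads with Cutadapt, aligned them with STAR to GRCm38.p6, counted them per gene (GENCODE vM24) with featureCounts and tested with DESeq2. The deposited values used here are raw counts per gene, and strand and multi-mapping settings are not given in the sources used here. Library totals were 41881191 to 52993821 counts.

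Each comparison was fitted on its 6 libraries over all genes with edgeR 4.0.16 in R 4.3.3 (filterByExpr, TMM, quasi-likelihood F test, Benjamini-Hochberg adjustment). The same fit was also run on counts simulated from the means and dispersions of these libraries. Calls required an adjusted p of at most 0.05 and a fold change of at least 1.5. SE was the log2 fold change divided by the square root of F. Shares and the ratio were compared by exact permutation (scipy 1.17.1). Alternatives used DESeq2 1.42.0, limma 3.58.1, other scalings and filters, loess offsets for length and GC (span 0.3), a replicate block and each library left out. Annotation here was GENCODE vM21, in which 15374 of 15384 genes were found and whose exon lengths and transcript types may differ from those of the authors' release, and GC content was taken from the longest transcript. Motifs were searched on both strands of the 250 bases before RefSeq starts.

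Values in every library were given for a fixed set of core members and for every called member. Of the other lists, the text names at most the 2 highest and 2 lowest calls (mean count 50 or more), plus Myc, Clk1, Srpk1 and Tra2b. The rule for the 54 genes uses symbols alone, but this gene family and the lists were chosen for description with earlier results of these data known. Some marker genes are not reported here.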

Additional observations from a re-analysis of the deposited data

How the results depend on the processing

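Of 636 values of comparisons under alternatives, 550 stayed within the spread between replicates or within 1.5 times the count and 86 did not, and where a value moved the cause was not tested beyond what the setting itself changes. Counts of called genes at 24 h against time 0 (7 higher, 4 lower) were 0 higher with total counts (against 6.1% of all tested genes). They were 4 higher with length and GC offsets alone (7.69%, against 11%), and adding the replicate block kept 4. With glmTreat at 1.5-fold they were 2 higher and 2 lower. On adjusted p alone they were 26 higher (50%, against 34.4%) and 17 lower (32.7%, against 36.5%). At 24 h against 12 h (7 higher, 3 lower) they were 0 higher (against 4.25%) and 5 lower (9.62%, against 24.8%) with total counts. With the offsets alone they were 4 higher (7.69%, against 9.05%) and 5 lower (9.62%, against 13.6%), and the block kept 4 and 5. They were 4 higher with glmTreat. On adjusted p alone they were 28 higher (53.8%, against 35.7%) and 15 lower (28.8%, against 35.6%). At 12 h against time 0, 1 gene was lower on adjusted p alone (1.92%, against 3.47%).

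Median log2 fold changes at 24 h against time 0 became, with total counts, -0.612 (SR), -0.0264 (hnRNP), -0.152 (SF3a), -0.249 (SF3b), 0.381 (Sm core), 0.0856 (U1 and U2) and -0.118 (U2AF). With the offsets they were 0.168 (hnRNP), 0.203 (SF3a, 0.204 with the block), 0.12 (SF3b, 0.119 with the block), 0.447 (Sm core) and 0.254 (U1 and U2). With upper-quartile factors they were 0.228 (hnRNP), 0.101 (SF3a) and 0.339 (U1 and U2), and without the filter -0.195 (U2AF). At 24 h against 12 h, total counts gave -0.603 (SR), -0.0157 (hnRNP), -0.112 (SF3a), -0.243 (SF3b), 0.424 (Sm core), 0.111 (U1 and U2) and -0.115 (U2AF). The offsets gave -0.509 (SR, -0.51 with the block), 0.186 (hnRNP), 0.183 (SF3a, 0.185 with the block), 0.149 (SF3b), 0.483 (Sm core) and 0.283 (U1 and U2, 0.282 with the block). Upper-quartile factors and the fit of all 9 libraries gave 0.232 and 0.189 (hnRNP), and no filter gave -0.222 (SR) and -0.159 (U2AF). At 12 h against time 0, upper-quartile factors gave -0.0158 (hnRNP) and total counts -0.0225 (hnRNP) and -0.0354 (SF3b).

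Without single libraries, the hnRNP median ran from -0.0264 to 0.0159 at 12 h, 0.18 to 0.233 at 24 h and 0.195 to 0.228 at 24 h against 12 h. SF3b ran from -0.0295 to 0.000793 at 12 h, the Sm core from -0.04 to 0.0232 at 12 h and 0.616 to 0.662 at 24 h against 12 h, SF3a from 0.0744 to 0.114 and the U1 and U2 proteins from 0.289 to 0.345 at 24 h. Called genes at 24 h numbered 6 to 8 higher and 4 to 5 lower.

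Without the most abundant gene, share differences in percentage points at 24 h against time 0 and against 12 h were 3.5 and 3.45 (hnRNP), 0.282 and 0.306 (SF3a), -0.73 and -0.887 (SF3b), 0.791 and 0.854 (Sm core), 0.338 and 0.359 (U1 and U2), and -0.365 and -0.378 (U2AF). Among the genes that passed on adjusted p under TMM, directions reversed under total counts for Hnrnpl (-0.0134), Hnrnpab (-0.0394), Hnrnpul1 (-0.128) and Hnrnpm (-0.0939) against time 0, and for Hnrnpl (-0.0129), Hnrnpk (-0.0186), Sf3a3 (-0.112), Snrpa1 (-0.0583), Hnrnpul1 (-0.0887) and Hnrnpm (-0.0551) against 12 h. Under the offsets Sf3b2 reversed to 0.0552 (0.0545 with the block) and 0.114 (0.113 with the block). With genes that had not passed included, signs changed under total counts for 9 of 52 genes in each of these 2 comparisons. Under the offsets alone they changed for 4 genes against time 0 and 2 against 12 h.

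Deviations of same-numbered libraries correlated between -0.106 and 0.057, and those of differently numbered ones between -0.07 and 0.098. No shared effect of the replicate number was seen, which does not tell whether wells were paired in the experiment. The replicate block gave 7 higher and 4 lower genes against time 0, 7 and 3 against 12 h, and 0 and 0 at 12 h, with family medians at 24 h of -0.383 (SR), 0.196 (hnRNP) and 0.604 (Sm core).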
